A study of Mus musculus with 4 samples.

Results

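Knockout and control cells of the Flk1- fraction were compared gene by gene, as the log2 value on the array labelled KO Flk1- minus the log2 value on the array labelled F/F Flk1-. Both fractions came from mouse embryonic stem cells kept first in hanging drops and later in suspension, where they form embryoid bodies, aggregates that differentiate without added direction. The bodies were broken up at day 4, and anti-Flk1 antibody was used for sorting. Flk1 is the VEGF receptor encoded by Kdr, which marks early mesoderm with blood, vessel and heart potential. The Flk1- fraction is therefore what the sort left behind. The control line is labelled F/F and the other line Snai1 knockout, and no added agent, strain, clone number or method of deletion is given in the sources used here. Each of the 4 groups (control and knockout, Flk1+ and Flk1-) was 1 array, so no difference below has a spread between replicates and no test was possible. The knockout Flk1- sample carries 2 days in its labels, day 4 in the description and day 5 in the source name, while the control Flk1- sample has day 4 in both. A later day and the genotype cannot be told apart in this pair.

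Of 17097 genes on the array, 10533 were above the floor on at least 1 of the 2 Flk1- arrays, and these are described. The floor was a log2 value of 3.19, the 40th percentile of all gene values on the 4 arrays, under which a value was read as not detected. The genes nearest to it were Fam184b, inside at 3.10 and 3.19 on the control and knockout arrays, and Kctd12b, outside at 3.19 and 3.15. For a gene above the floor on only 1 of the 2 arrays, this filter fixed the direction of its difference. A difference was counted when it reached 1 on the log2 scale, which is 2-fold. On the higher side Nanog, with a difference of 0.998, lay just outside this rule and Mreg, at 6.04 and 7.05, just inside it. On the lower side these were Mmd, at 4.53 and 3.53, and Bmp2k, at 4.29 and 3.29.

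Snai1 encodes a zinc finger repressor that binds E-box sequences in the promoters of epithelial genes such as the E-cadherin gene. It is known for driving the epithelial to mesenchymal transition, through which cells of the epiblast leave the epithelium at gastrulation and become mesoderm. In embryoid bodies, the first blood cells made from that mesoderm are primitive erythroid cells carrying embryonic globins, and beating cardiac cells appear at a similar stage. Cells that have not left the pluripotent state keep Pou5f1, Sox2 and Nanog, and those that pass to the later epiblast state switch on genes such as Fgf5, Otx2 and Pou3f1.

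Most genes lay close to the diagonal of the 2 arrays, and the genes far from it lay mainly below it. By the 2-fold rule 41 genes had higher values on the knockout array, 0.389% of the genes above the floor, and 100 genes had lower ones, 0.949%. The median difference over all 10533 genes was 0.04 (interquartile range -0.12 to 0.19), and 92.1% of genes lay within 0.5 of 0. A difference above 0 was found for 56.8% of all these genes, the background for every count of higher or lower values below. The lower side reached much further: 25 genes were lower by 2 or more on the log2 scale and 8 by 3 or more, whereas 0 genes were higher by 2. For scale, 79 olfactory and related receptor genes, silent in most tissues, had differences with an SD of 0.13 and a largest size of 0.40. This is a spread between genes near the floor, not between cultures.

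**Figure D1:**
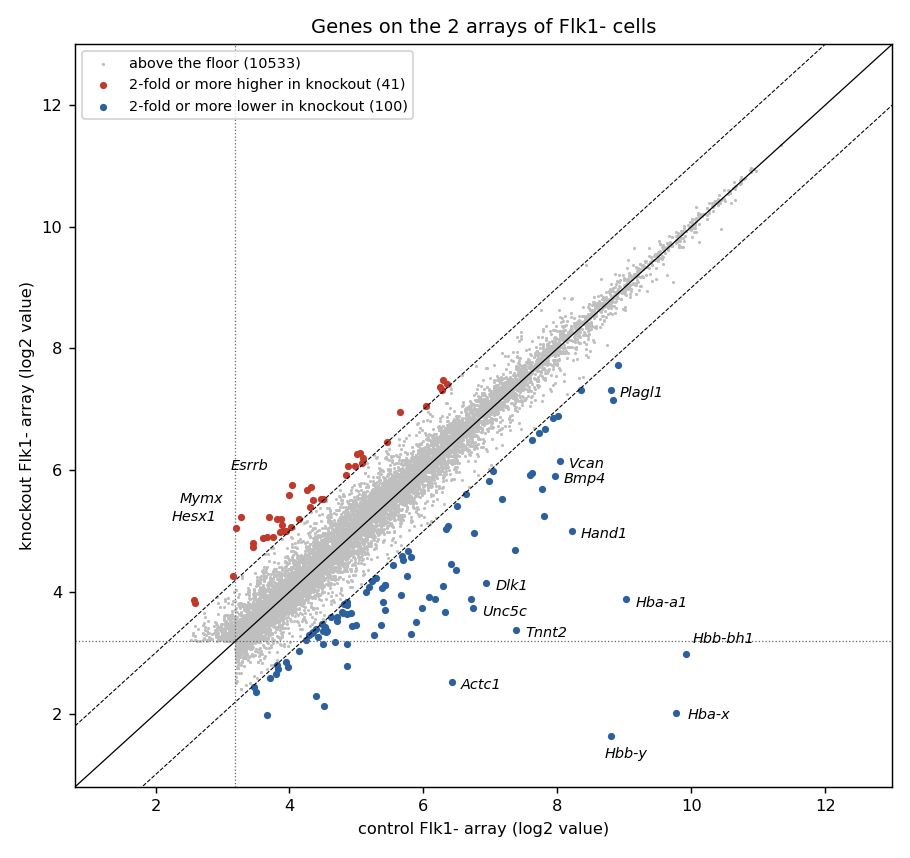
Each point is 1 of 10533 genes above the floor, with its log2 value on the control Flk1- array (x axis) and on the knockout Flk1- array (y axis). Dashed lines mark 2-fold, dotted lines mark the floor, and the globin genes lie furthest from the diagonal, on the lower side.

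The sort and the genotype were looked at first. Kdr was at 4.55 in control and 3.88 in knockout Flk1- cells, against 8.92 and 9.03 in the Flk1+ fractions, so both Flk1- arrays were low for the sorted marker and the knockout one was lower. Snai1 was at 2.42 and 1.94, below the floor on both arrays, so these values check neither label. Its paralog Snai3 was near the floor, at 3.22 and 3.34. Of 43 endothelial genes, 21 were below the floor on both Flk1- arrays, among them Tie1, Etv2, Erg, Fli1, Tal1 and Sox18, and the summed linear level of the list was 3094 and 3168. Of the 22 others, 11 were higher and 11 lower in the knockout. By the 2-fold rule 2 (9.09%, beside 0.949% of all genes) were lower and 1 (4.55%, beside 0.389%) was higher. The receptor gene Nrp1, at 7.62 and 6.49, was 1 of the lower ones, with its 3 probe sets from -1.23 to -1.13. Among 12 myeloid and platelet genes 8 were below the floor on both arrays, including Ptprc, Spi1 and Pf4, with sums of 99.1 and 92.9. For Gapdh, the 3' control signal less the 5' one, a measure of RNA integrity and amplification, was 1.76 on the control and 1.99 on the knockout array, and its part in the differences was not tested.

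The embryonic globin genes were the genes furthest apart. Hba-x, the embryonic alpha-type (zeta) chain, was at 9.77 in control Flk1- cells and at 2.01 in knockout Flk1- cells, at least 95.9-fold lower when set against the floor. Hbb-bh1, an embryonic beta-type chain, was at 9.91 and 2.98, at least 106-fold lower. Hbb-y, the embryonic epsilon-type chain, was at 8.80 and 1.63, at least 48.9-fold lower, with its 3 probe sets ranging from -7.26 to -3.18. All 3 were bright on the control array and below the floor on the knockout array. In bulk RNA, fewer cells of a type and less RNA per cell cannot be told apart, here and in all results that follow.

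The alpha globin gene Hba-a1, used by embryonic and adult red cells, was at 9.02 and 3.88, 35.4-fold lower. The beta globin gene Hbb-b2 was at 6.40 and 4.45, with its probe sets ranging from -2.27 to -0.09. Hba-a2 was the exception, at 7.37 and 7.27 on its only probe set, which also stood at 7.34 and 7.57 on the Flk1+ arrays. Of the 6 globin genes measured, 5 were therefore 2-fold lower, and the median difference was -6.04. The control Flk1- array carried most of the globin signal of the series. The summed linear level of the 6 genes was 3059 there, against 206 in knockout Flk1- cells, 315 in control Flk1+ cells and 244 in knockout Flk1+ cells. Much of each smaller sum is the nearly level Hba-a2 value, so the sums understate the gaps of the other globin genes. In Flk1+ cells Hba-x was at 5.11 in control and 1.97 in knockout, and Hbb-bh1 at 5.56 and 2.63.

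The proximal promoters of 3 globin genes that lay apart together are shown because CACCC and CCAAT elements are the textbook landmarks of globin promoters. The 120 bases before each annotated start are given from RefSeq (GRCm38.p6), 5′ to 3′, with CACCC and CCAAT in capitals.
Hba-x, chr11:32276480-32276599, plus strand: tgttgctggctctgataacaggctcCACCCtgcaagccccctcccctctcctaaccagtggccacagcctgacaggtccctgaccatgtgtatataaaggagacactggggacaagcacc
Hbb-y, chr7:103853208-103853327, minus strand: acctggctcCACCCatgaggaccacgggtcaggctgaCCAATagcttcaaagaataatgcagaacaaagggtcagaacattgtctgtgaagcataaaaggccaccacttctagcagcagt
Hba-a1, chr11:32283552-32283671, plus strand: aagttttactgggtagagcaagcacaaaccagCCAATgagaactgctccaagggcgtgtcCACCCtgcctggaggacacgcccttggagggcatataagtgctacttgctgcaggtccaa
All 3 hold CACCC, 95, 111 and 60 bases before the start in Hba-x, Hbb-y and Hba-a1, and the last 2 hold CCAAT, 83 and 88 bases before it. Such short words are common. CACCC was present, on either strand of the windows of 300 bases from 250 before to 50 after the start, in 67.1% of the 8550 genes above the floor with a window, and CCAAT in 42.9%. The longer erythroid word CCACACCC was found in 0 of 33 globin and erythroid genes with a window and in 4.48% of all genes. The GATA-type word AGATAA was found in 7 of the 33 (21.2%) and in 7.44% of all genes. These counts describe the letters of the windows and say nothing of binding.

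Genes of the erythroid program outside the globin loci were lower too, by smaller amounts and from lower levels. Of 35 erythroid genes above the floor, 30 had a lower value on the knockout array, and 5 of them (14.3%, beside 0.949% of all genes) were 2-fold lower, with 0 higher. Klf1, the factor that drives beta globin transcription, was at 4.40 and 2.29, at least 2.31-fold lower. Lmo2, a bridging protein of the GATA and TAL1 complex, was at 5.26 and 3.30. It was brighter in the Flk1+ fractions, at 7.36 and 7.07, as was Kdr, and the part of residual Flk1+ cells in the control Flk1- value was not tested. Several lower genes described below were also brighter in control Flk1+ than in control Flk1- cells. Examples are Hand1, Adam12, Cdh11, Col1a1 and Pmp22, and for these it was not tested either. Alas2, the red cell enzyme that starts heme synthesis, was at 3.67 and 1.97, the erythroid factor Nfe2 at 3.98 and 2.77, and the erythropoietin receptor gene Epor at 3.81 and 2.80. Set against the floor, these 3 were lower by at least 1.39-fold, 1.73-fold and 1.53-fold, so they were 2-fold lower only by the values deposited below the floor.

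All 11 erythroid transcription factor genes above the floor had lower knockout values, with a median of -0.66. Klf1 and Nfe2 were among those above the floor on the control array only, so for them the filter fixed the direction. The median of the whole erythroid list was -0.29 over 35 genes, and -0.26 over the 28 above the floor on both arrays. Gfi1b was at 4.16 and 3.40 and Gata1, the master erythroid factor, at 4.30 and 3.64, differences of -0.76 and -0.66 that did not reach 2-fold. Gata2 and Runx1, which act earlier and in the hemogenic endothelium, barely differed, at 3.48 and 3.46 and at 3.94 and 3.85. Along the heme pathway, Cpox, Ppox, Uros and Fech had differences of -0.88, -0.61, -0.58 and -0.56, while Urod and Alad differed by 0.02 and -0.11. Receptor, membrane and other red cell protein genes had a median of -0.04 over 10 genes, Epor among them, with Slc4a1 at 3.81 and 3.42 and Epb42 at 3.51 and 3.19, both near the floor on either array. Of the 48 erythroid genes measured, 13 were below the floor on both arrays, among them Tal1, Hemgn and Rhag.

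Transcription factors of the heart and lateral plate mesoderm were lower as a group. Of 28 above the floor, 24 had lower knockout values, 8 (28.6%) were 2-fold lower and 1 was 2-fold higher, with a median of -0.74. The median was -0.69 over the 25 above the floor on both arrays. Hand1, a basic helix-loop-helix factor of the lateral plate, heart and extraembryonic mesoderm, was at 8.21 in control and 5.00 in knockout cells, 9.24-fold lower. Mef2c, a MADS-box factor of muscle, was at 5.81 and 3.32, close to the floor in the knockout. Foxf1, of the splanchnic mesoderm, was at 6.17 and 3.89, and the homeobox gene Meis2 at 6.30 and 4.10.

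Not all cardiac regulators lay far apart. Tbx20 was at 8.35 and 7.32, 2.03-fold lower but still bright in the knockout. Gata4, at 6.41 and 5.84, and Gata6, at 6.93 and 6.35, were not 2-fold apart and also stayed well above the floor. Isl1, which marks the second heart field, was at 7.66 and 7.33, and Mesp1, the factor of the earliest cardiac mesoderm, was at 4.37 and 4.06, neither of them 2-fold. Nkx2-5 was at 3.27 and 2.41, near the floor already in the control. The member on the other side was Bnc2, at 3.86 and 4.99, whose second probe set differed by 0.20. It was also 1 of only 3 of the 41 higher genes that were not higher in the Flk1+ fraction of the knockout.

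The contractile genes split by role. Of 22 cardiac sarcomere genes above the floor, 18 had lower knockout values and 8 were 2-fold lower, with a median of -0.55. The median of the whole contractile list was -0.26 over 38 genes, and -0.15 over the 32 above the floor on both arrays. Tnnt2, cardiac troponin T, was at 7.39 and 3.38, 16.1-fold lower, and its 2 probe sets gave -4.04 and -4.01. Actc1, cardiac actin, was at 6.43 and 2.52, at least 9.41-fold lower. Myl4, the atrial and embryonic myosin light chain, was at 6.70 and 3.89, Tnnc1 at 6.49 and 4.36, Myh7 at 6.75 and 4.98 and Tnni1 at 5.43 and 3.70. These genes were all clearly detected in control Flk1- cells at the labelled day, and in the knockout Tnnt2 was just above the floor and Actc1 below it.

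Tnnt1, the slow skeletal troponin T, went the other way, at 4.32 and 5.73, 2.65-fold higher. It was also higher in the Flk1+ fraction, at 3.66 and 5.42. Smooth muscle and actomyosin genes had a median of -0.17 over 12 genes. Among them Acta2, smooth muscle actin, was at 6.08 and 3.92, although its other probe set, below the floor on both arrays, differed by -0.32, while the widely used actin-binding genes Vcl, Cald1 and Mylk had differences of 0.12, 0.16 and 0.20. The 4 calcium handling and ion channel genes above the floor (Atp2a2, Casq2, Ryr2 and Kcnj5) lay between -0.02 and 0.41.

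**Figure D2:**
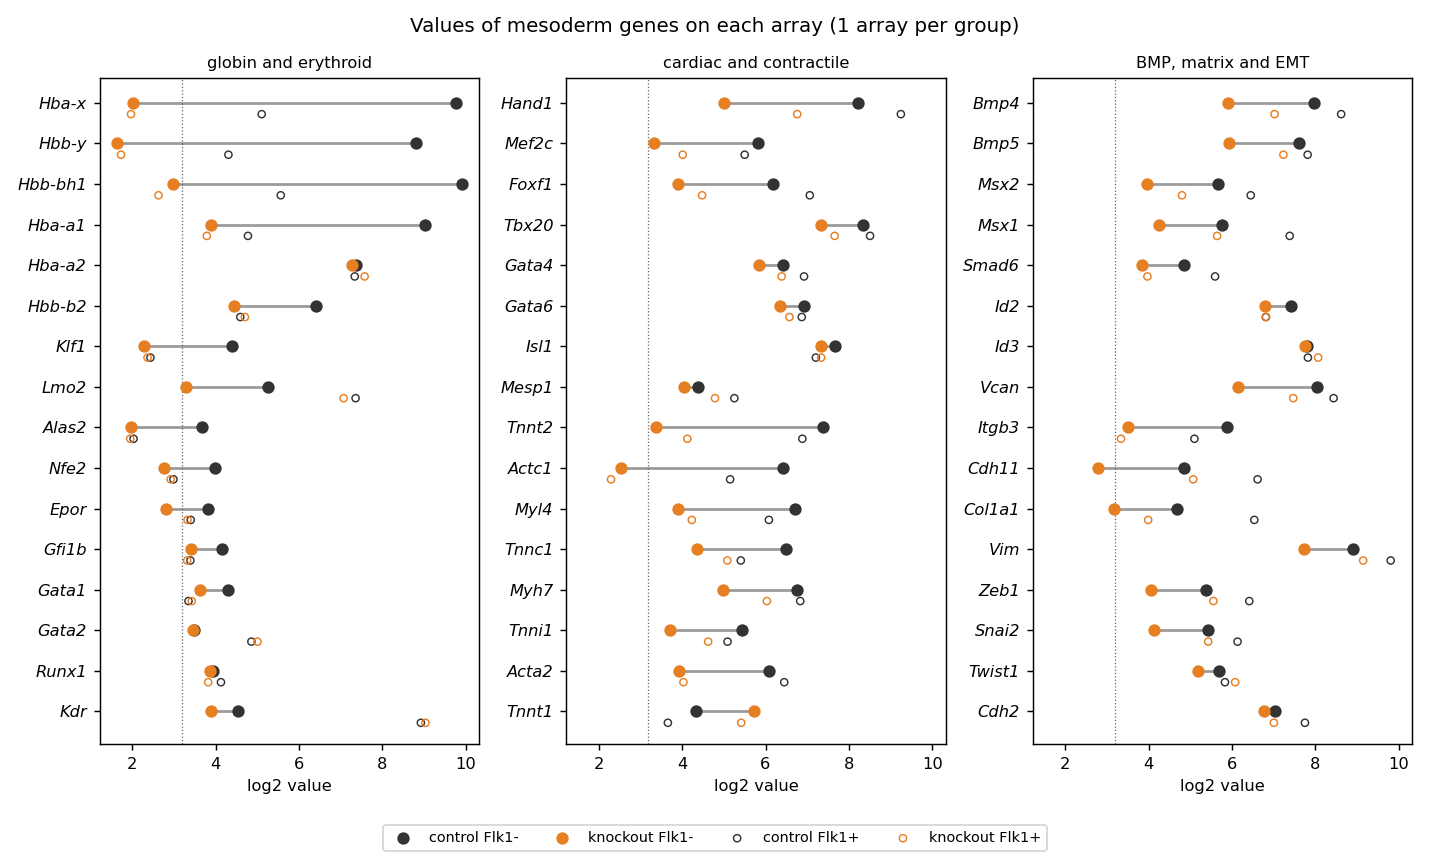
Log2 values of named mesoderm genes, 1 array per group, with filled points for the Flk1- arrays, open points for the Flk1+ arrays and a dotted line at the floor. The embryonic globin genes show the widest gap between control and knockout Flk1- cells, and Tnnt1 is the gene in the middle panel with the knockout point on the right.

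BMP signals, secreted ligands that pattern mesoderm toward blood and heart, were represented on the lower side by ligands, targets and an inhibitor. Bmp4 was at 7.96 in control and 5.90 in knockout Flk1- cells, 4.16-fold lower, and Bmp5 was at 7.60 and 5.93, 3.18-fold lower, with its 3 probe sets between -1.67 and -1.31. Bmp7 and Bmp2 were at 5.49 and 5.41 and at 5.20 and 5.49, so the ligands did not lie to the same side. Of 12 target genes above the floor 10 had lower knockout values, and Hand1, Msx2 (5.66 and 3.95) and Msx1 (5.75 and 4.26) were 2-fold lower. The other probe set of Msx1 differed by -0.59, and the smallest difference of Msx2 under an alternative was -0.98. The Id genes, direct targets in many cells, had smaller differences of -0.36, -0.64, -0.05 and -0.75 for Id1, Id2, Id3 and Id4. The inhibitory Smad gene Smad6, itself induced by BMP, was at 4.86 and 3.83 and Smad7 at 6.29 and 5.73.

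Receptors and signal carriers of the pathway showed little difference. Their median was 0.07 over 9 genes, and Smad1, Smad4 and Smad5 differed by 0.06, 0.07 and 0.10. Among Wnt genes, Wnt5a, a ligand of the non-canonical branch, was at 5.69 and 4.53, and the receptor gene Fzd8 was at 5.08 and 6.12, and the median over 42 pathway genes was -0.002. All 4 FGF receptor genes above the floor had lower values, with Fgfr2 at 5.82 and 5.23 and Fgfr1 at 6.65 and 6.34, none of them 2-fold. Of 8 hedgehog pathway genes above the floor 7 had lower values, with Gli3 at 4.61 and 3.93 and the receptor gene Ptch1 at 7.17 and 6.70.

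Mesenchymal and matrix genes were lower in the knockout across collagens, glycoproteins and surface receptors. Of 44 above the floor, 36 had lower knockout values and 10 (22.7%) were 2-fold lower, with a median of -0.51 and 0 genes 2-fold higher. Vcan, the hyaluronan-binding proteoglycan versican of the early heart and mesenchyme, was at 8.04 and 6.15, and Has2, which makes hyaluronan, was at 7.03 and 5.99. Col1a1 was at 4.68 and 3.17, at least 2.81-fold lower, and Col5a1 at 5.42 and 4.12. The integrin gene Itgb3 was at 5.89 and 3.50 and the metalloprotease gene Adam12 at 4.52 and 2.12. Vim, the intermediate filament of mesenchymal cells, was at 8.91 and 7.73, still bright in the knockout, and Fn1, fibronectin, was at 8.45 and 7.86.

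Markers of fibroblasts, which can be carried over as feeder cells, shared much of this list. In all 13 of 19 were below the floor on both arrays, including Col1a2, Dcn and Lum, and all 6 others had lower knockout values. Only 3 of the 6 were also above the floor on the knockout array, so for the rest the filter fixed the direction. With no floor the median of all 19 was -0.16, beside -0.50 over the 6. The summed linear level of the 19 was 394 in the control and 276 in the knockout, and their part in the matrix result was not tested. Basement membrane genes had a median of -0.37 over 15 genes, of which Col4a5, at 3.71 and 2.59, was 2-fold lower by its deposited values and at least 1.44-fold lower against the floor. Col4a1 and Col4a2 were at 7.03 and 6.52 and at 5.04 and 4.55, while the laminin genes Lamb1 and Lamc1 differed by 0.25 and 0.17.

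Regulators of the epithelial to mesenchymal transition divided by the side they act on. Zeb1, a repressor of epithelial genes, was at 5.39 in control and 4.06 in knockout cells, although its probe sets ranged from -1.33 to -0.13. Snai2, the closest relative of Snai1, was at 5.43 and 4.12, 2.47-fold lower on its single probe set. Zeb2 and Twist1 were at 4.78 and 4.03 and at 5.68 and 5.19. Of 11 mesenchymal factors above the floor 8 had lower knockout values (median -0.49), the exceptions being Tcf3, Snai3 and Gsc. Of 9 epithelial factors 8 had higher values (median 0.14), led by the splicing factor gene Esrp1, at 5.94 and 6.69, and Grhl2, at 5.49 and 5.95. Cadherins did not show a simple exchange: Cdh1 was at 7.76 and 8.63, Cdh2, the N-cadherin gene often gained in the transition, was at 7.03 and 6.77, and the mesenchymal Cdh11 was at 4.86 and 2.79.

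Several strongly lower genes belonged to other groups. Dlk1, a paternally expressed imprinted gene encoding a Notch-ligand-like protein, was at 6.94 and 4.15, 6.91-fold lower. The imprinted growth regulators Cdkn1c (7.62 and 5.96) and Plagl1 (8.80 and 7.31) followed, but the imprinted list as a whole had a median of -0.11 with 12 of 35 genes on the higher side. Igf2 was at 10.45 and 9.96 and Peg3 at 9.01 and 8.63. The maternally expressed Ascl2, a trophoblast factor, was 2-fold higher, at 5.10 and 6.20. Genes of either parental class therefore lay on either side.

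Ttr, the transthyretin gene of visceral endoderm, was at 7.36 and 4.68. The 17 secreted and transport protein genes of endoderm above the floor had a median of 0.05, with 9 of them higher, Apoa1 at 3.42 and 3.37 and the visceral endoderm factor gene Hnf4a, from another role, at 4.28 and 4.72. The retinoid-binding protein gene Crabp1 was at 6.32 and 3.67. Unc5c, a netrin receptor gene, was at 6.74 and 3.73, 8.09-fold lower, while the 10 other netrin, slit and receptor genes above the floor lay between -0.47 and 0.48. Igfbp4 was at 8.82 and 7.15 and Igfbp3 at 3.82 and 5.20, on opposite sides within 1 family of IGF-binding proteins. Pmp22 (5.97 and 3.74), Rgs5, a pericyte marker (7.78 and 5.68), and the cell cycle gene Ccnd2 (6.34 and 5.03) were lower and in none of the lists. For Rgs5 all 4 probe sets lay between -2.55 and -1.72, and for Ccnd2 all 6 lay between -1.94 and -1.31.

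On the higher side were factors of the pluripotent state. Of 17 naive pluripotency factors above the floor 14 had higher knockout values, with a median of 0.51, and 2 were 2-fold higher (11.8%, beside 0.389% of all genes). Esrrb, an orphan nuclear receptor of naive cells, was at 4.04 in control and 5.76 in knockout Flk1- cells, but its other probe set differed by -0.08. Nr0b1 was at 3.60 and 4.89. Nanog was at 6.57 and 7.57, Sox2 at 6.41 and 7.34 and Pou5f1 at 6.93 and 7.67, so the core factors were well detected in the control fraction as well. Tbx3, Myc and Stat3 were lower, at -0.81, -0.77 and -0.35, and Klf4 and Klf5 differed by 0.22 and 0.03.

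Genes restricted to stem cells showed the highest list median, 0.69 over 33 genes, with 30 higher and 7 (21.2%) 2-fold higher. Dppa2, a chromatin factor gene, was at 5.01 and 6.27, and its neighbour on chromosome 16, Morc1, 121 kb away, was at 3.95 and 5.01. Fbxo15 was at 4.36 and 5.51, the Ras-like gene Eras at 6.25 and 7.37, Nptx2 at 6.30 and 7.47, Mageb16 at 4.98 and 6.07 and the amino acid transporter gene Slc7a3 at 6.28 and 7.32. Lin28a and Trim71, also expressed in later embryonic cells, differed by -0.11 and -0.04. Dnmt3l, the partner of the de novo methyltransferases, was at 4.06 and 5.05 and Dnmt3b at 9.14 and 9.64, whereas Dnmt1 differed by 0.05.

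Genes of the epiblast after implantation were higher together with these. Of 32 above the floor, 27 had higher knockout values and 4 (12.5%) were 2-fold higher, with a median of 0.45. Hesx1, a homeobox gene of the anterior epiblast and forebrain, was at 3.20 and 5.05, 3.58-fold higher. Pou3f1 was at 4.88 and 6.06, with a second probe set at -0.19. Fgf5, the defining ligand of this state, was at 8.43 and 9.37 and Otx2 at 8.10 and 8.83. The 5 genes with lower values were Myc, Sox11, Fgf15, Cdh2 and Epha4, at -0.77, -0.53, -0.47, -0.25 and -0.03.

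Within the Nodal pathway, which maintains the epiblast and induces mesendoderm, 10 of 13 antagonist and target genes had higher values, with a median of 0.40. Lefty1, a secreted Nodal inhibitor, was at 4.00 and 5.60, 3.03-fold higher, and Lefty2 was at 5.04 and 5.78. Cer1, another Nodal inhibitor, was at 7.45 and 8.15. The 5 ligand, coreceptor and processing genes were split: the ligand genes Nodal and Gdf3 were higher, at 5.33 and 6.12 and at 3.63 and 4.62, while the coreceptor gene Cfc1 was at 6.30 and 5.88 and the protease genes Pcsk6 and Furin differed by -0.10 and -0.01. The 10 receptor and transducer genes had a median of -0.03, and Foxh1 and Smad3 differed by -0.03 each. The 19 primitive streak genes above the floor split into 11 higher and 8 lower (median 0.08). Eomes was at 6.05 and 6.39, Mixl1 at 4.06 and 4.14 and Lhx1 at 6.95 and 7.36, while Wnt5a was 2-fold lower and Mesp1 differed by -0.31.

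Endoderm genes divided into roles. Of 12 endoderm transcription factors 10 had higher values, with a median of 0.44, and Hhex, at 6.35 and 7.42, was 2-fold higher, as was Foxq1 on 1 of its 2 probe sets (1.42 and -0.10). Sox17 was at 6.88 and 7.48 and Foxa2 at 5.08 and 5.54. Genes of parietal endoderm and the endoderm receptors had a median of -0.38 over 11 genes, and several of these, such as Col4a1, Lama1 and Pdgfra, also stand in the matrix lists. Among secreted proteins, Apob was at 4.52 and 3.43 and Pga5 at 5.44 and 6.22.

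**Figure D3:**
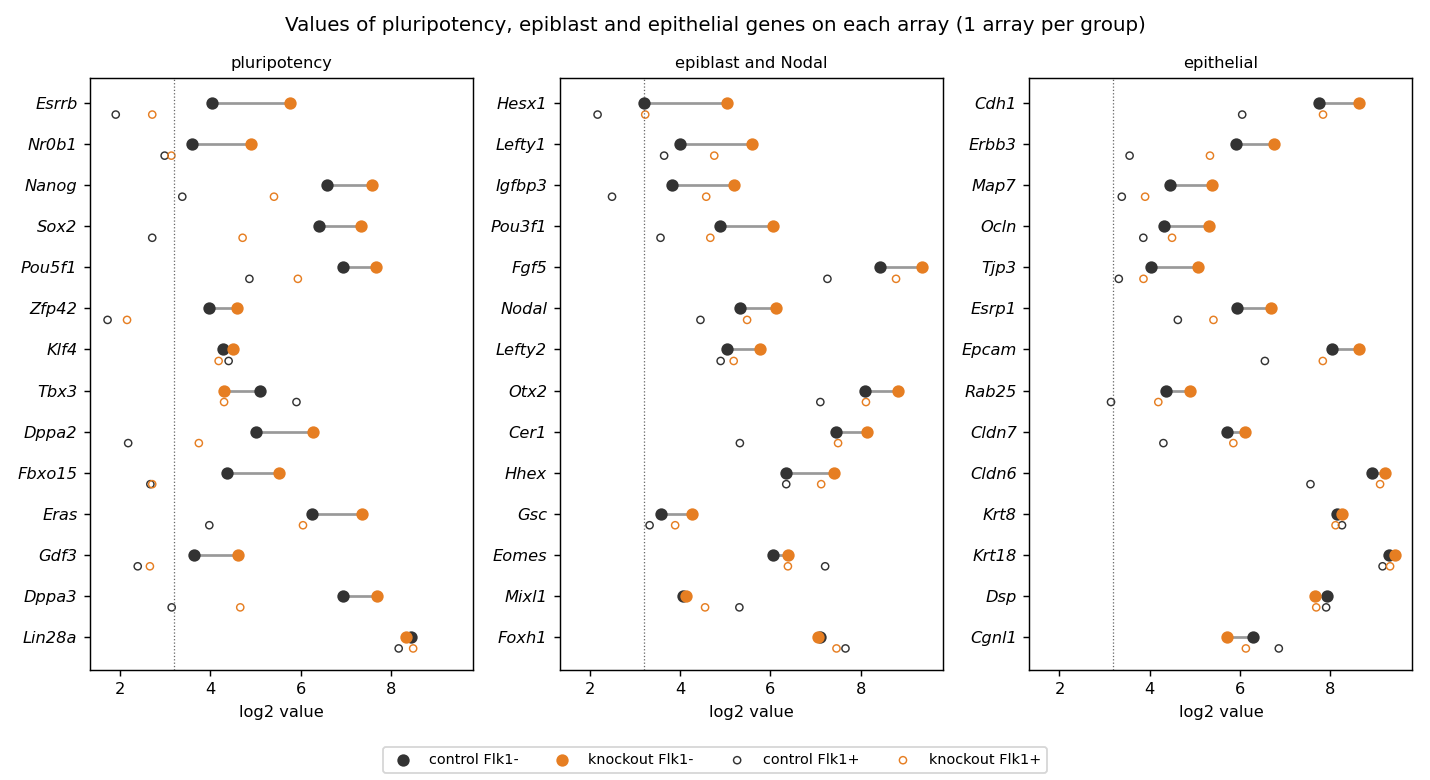
Log2 values of named pluripotency, epiblast, Nodal and epithelial genes, 1 array per group, with filled points for the Flk1- arrays, open points for the Flk1+ arrays and a dotted line at the floor. Knockout Flk1- points lie to the right for most genes, by less than 2 log2 units for each.

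Epithelial genes were higher by modest amounts and without a single 2-fold member. Of 33 above the floor, 30 had higher knockout values, with a median of 0.38. Erbb3, a receptor tyrosine kinase gene, was at 5.90 and 6.76, Map7 at 4.45 and 5.38 and Itga6 at 5.17 and 5.91. Epcam was at 8.03 and 8.64 and Rab25, a vesicle trafficking gene, at 4.35 and 4.89. The simple epithelial keratins Krt8, Krt18 and Krt19 differed by 0.10, 0.13 and 0.11, about the SD of the receptor genes, and the desmosome genes Dsp and Pkp2 by -0.27 each.

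At tight junctions, the seals of the epithelial sheet, 19 of 24 genes had higher values, beside 56.8% of all genes. Tjp3, a scaffold gene, was 2-fold higher at 4.02 and 5.07, and Ocln, the occludin gene, was at 4.32 and 5.31. All 8 claudin genes above the floor had higher values, from 0.04 for Cldn12 to 0.63 for Cldn23. Cldn6 was at 8.92 and 9.21 and Cldn7 at 5.72 and 6.12 in these cells, while in Flk1+ cells their differences were 1.54 and 1.55, from lower control values of 7.56 and 4.30. Cgnl1, Jam3, Marveld1 and Pard6b had lower values, from -0.57 to -0.44.

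The E-box CAGGTG, a word that SNAIL-type zinc fingers can bind, was searched on both strands of the promoter windows (its reverse reads CACCTG). Promoters of 4 epithelial genes are printed to show its spacing, from RefSeq (GRCm38.p6), 5′ to 3′, upstream of the start only and with the E-box in capitals.
Epcam, chr17:87635779-87635978, plus strand: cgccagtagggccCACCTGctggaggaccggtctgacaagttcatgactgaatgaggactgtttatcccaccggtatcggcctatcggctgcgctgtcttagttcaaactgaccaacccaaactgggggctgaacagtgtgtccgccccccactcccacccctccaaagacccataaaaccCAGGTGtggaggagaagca
Cldn6, chr17:23679255-23679364, plus strand: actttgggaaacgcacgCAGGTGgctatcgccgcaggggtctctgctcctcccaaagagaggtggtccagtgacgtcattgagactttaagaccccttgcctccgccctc
Ocln, chr13:100552529-100552728, minus strand: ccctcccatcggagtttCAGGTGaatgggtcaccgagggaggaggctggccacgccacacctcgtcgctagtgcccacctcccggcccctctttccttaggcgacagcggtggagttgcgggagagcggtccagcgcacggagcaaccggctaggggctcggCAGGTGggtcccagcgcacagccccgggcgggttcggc
Cldn7, chr11:69965311-69965420, plus strand: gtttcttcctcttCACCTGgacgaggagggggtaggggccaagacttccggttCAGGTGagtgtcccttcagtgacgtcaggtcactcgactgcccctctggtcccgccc
In Epcam the words begin 187 and 19 bases before the start, in Ocln 213 and 68, and in Cldn7 97 and 57. In Cldn6 1 begins 93 bases before the start and another begins at base 41 after it, which is outside the printed stretch.

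Of the 19 epithelial genes above the floor that have a window, 16 (84.2%) held CAGGTG, and of 17 tight junction genes 10 (58.8%) did, beside 21.3% of the 8550 genes above the floor with a window. Over both lists together, 25 of 35 genes held it (71.4%), and the median difference was 0.40 for these 25 and 0.06 for the other 10. Of the 25, 21 had higher knockout values, beside 59.8% of all holders of the word above the floor. The 2 lists were mostly higher whatever their promoters, 30 of 33 epithelial and 19 of 24 tight junction genes. Among genes 2-fold higher, 11 of the 28 with a window held the word (39.3%), including Tnnt1, Igfbp3, Eras, Sox15 and Ascl2. Among genes 2-fold lower, 9 of 66 did (13.6%), including Bmp4 and Tnnt2.

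Over all genes above the floor, the difference between holders and others was small in the centre and larger at the edge. The median difference was 0.06 for the 1825 genes with CAGGTG and 0.03 for the 6725 without. At 1.5-fold, 94 of the holders were higher and 37 lower (5.15% and 2.03%), and of the genes without it 149 were higher and 156 lower (2.22% and 2.32%). Of 265 genes with 2 or more such words in 1 window, 17 were 1.5-fold higher and 2 lower. For AGATAA, 3.46% of the holders were 1.5-fold higher and 3.62% lower, against 2.79% and 2.15% of the genes without it. For CCACACCC these shares were 2.09% and 2.35%, against 2.88% and 2.25%. Epithelial genes, several of them textbook targets of SNAIL repressors, are part of the count for CAGGTG, and a match of letters is not a bound site.

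Other genes on the higher side had no common list. Mymx, which encodes a small fusion peptide of muscle cells, had the largest difference, 1.95, at 3.28 and 5.23 on its only probe set. Of the 4 genes of its list above the floor, the others were its partner gene Mymk, at 3.48 and 3.52, Pax3, at 4.23 and 3.87, and Myod1, at 3.20 and 2.85, none of them 2-fold apart. Stim2, a calcium sensor of the endoplasmic reticulum, was at 3.87 and 5.20, and Tmem198b at 5.64 and 6.95; both had a second probe set near 0 and were lower in Flk1+ knockout cells. The transporter gene Abcc4 was at 3.88 and 5.10, the detoxifying enzyme gene Mgst1 at 3.45 and 4.74, Sox15 at 3.76 and 4.90 and the restriction factor gene Apobec3 at 5.46 and 6.47. Germ cell markers had a median of 0.46 over 14 genes with none 2-fold apart, led by Dmrt1 (3.29 and 4.26) and Tfap2c (5.15 and 6.11).

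Housekeeping and proliferation genes set the scale for these medians. Ribosomal protein genes had a median of 0.02 over 29 genes, reference genes 0.00 over 10, glycolysis and hypoxia genes -0.04 over 26 and G2 and M phase genes 0.04 over 27. The S phase median was 0.18, with 32 of 33 genes higher and none past 0.54, and mitochondrial respiration genes 0.08 with 34 of 43 higher. Paraxial mesoderm and neuroectoderm lists had medians of 0.07 and 0.11. Of the genes 2-fold apart, 21 of the 41 higher and 55 of the 100 lower stood in at least 1 of the 48 lists. The lists were chosen with earlier results of these data known, so this share is not independent of them.

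**Figure D4:**
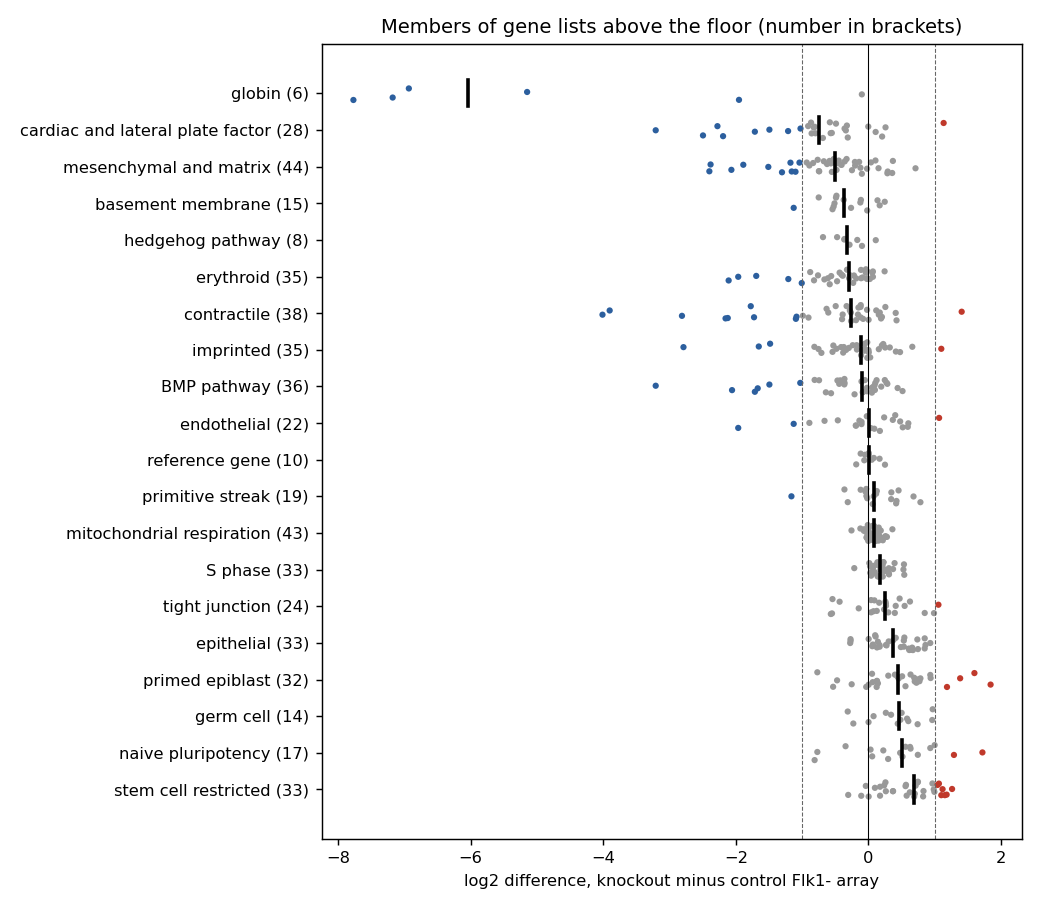
Each point is a list member above the floor, placed by its log2 difference between the knockout and control Flk1- arrays, with blue and red for 2-fold lower and higher, and a black bar at the list median. Globin genes lie furthest to the left, and the stem cell restricted list has the rightmost median, 0.69.

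How far a difference depends on the probe set was read from genes with several. Of the 100 lower genes, 44 had at least 2 probe sets above the floor, in 43 all of these pointed the same way and in 26 all were 2-fold. Of the 41 higher genes only 8 had at least 2, in 5 all pointed the same way and in 0 all were 2-fold. The lower genes that held in all probe sets above the floor included Hba-a1, Hbb-y, Tnnt2, Hand1, Unc5c, Ttr and Mef2c. Esrrb, Foxq1 and Pou3f1 were the higher genes with a probe set above the floor on the other side of 0, and Ints6 was the lower one. The other probe sets of Myl4, Meis2 and Itgb3, below the floor on both arrays, differed by -0.32, -0.25 and -0.34. All probe sets taken, Hba-a1 ran from -6.51 to -3.66, Vcan from -2.14 to 0.03 and Ascl2 from -0.01 to 1.10. Under at least 1 alternative, such as averaging a gene's probe sets, the differences of Dppa2, Ascl2, Mgst1, Esrrb and Nptx2 came down to 0.45, 0.62, 0.71, 0.82 and 0.92, under 2-fold, and those of Tbx20, Smad6, Tjp3, Slc7a3 and Fzd8 to sizes between 0.97 and 0.99. Over 3931 genes with 2 probe sets above the floor, 22 (0.56%) had differences that were 2-fold apart from each other.

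**Figure D5:**
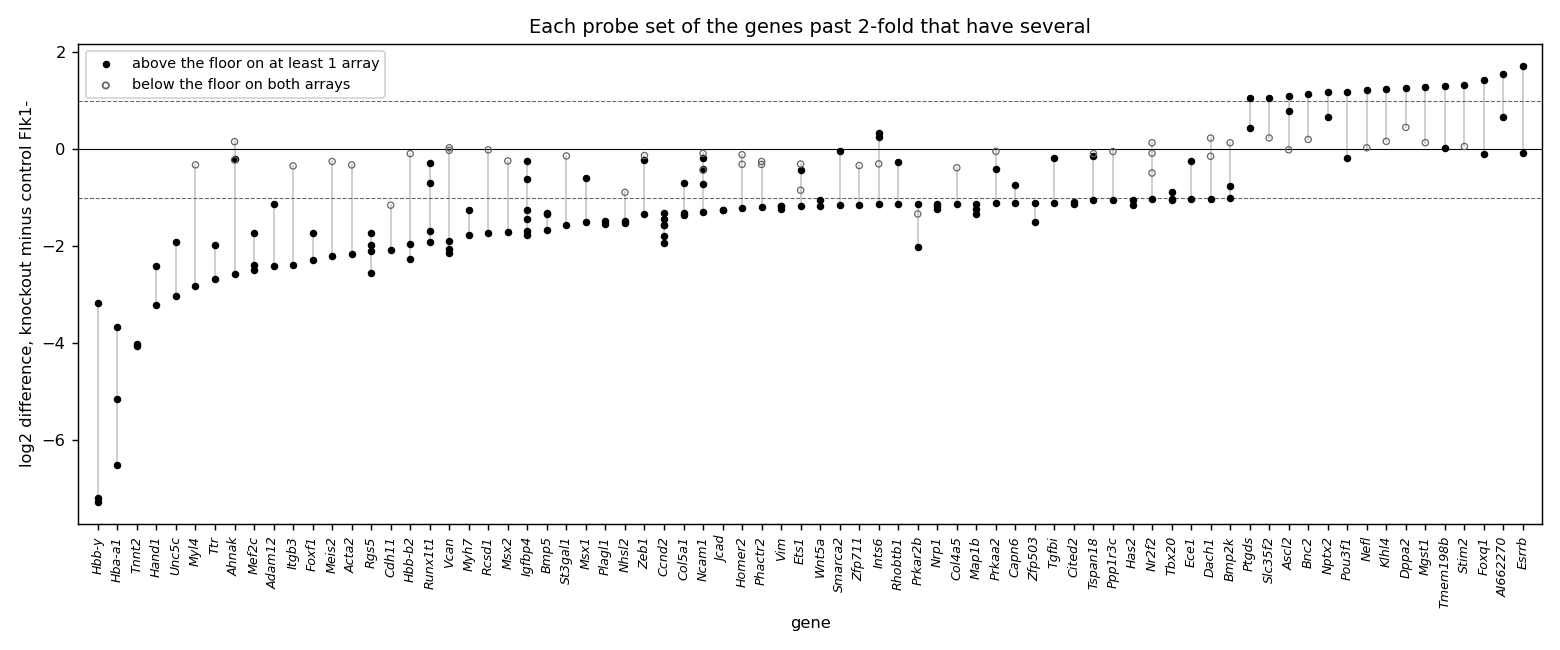
Log2 differences between the knockout and control Flk1- arrays for each probe set of the 2-fold genes that have several, ordered by the probe set used. Filled points were above the floor on at least 1 array, and open points, below it on both, lie mostly near 0.

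The Flk1+ fractions share no array with this pair and were set beside it. Of the 41 higher genes 38 were also higher in Flk1+ knockout cells, where 42.7% of all 10533 genes were, and of the 100 lower genes 91 were also lower, where 57.2% were. Both fractions of a line may come from 1 culture, so they are not replicates of the genotype. The median Flk1+ difference was 0.84 for the higher and -0.87 for the lower genes, against 1.18 and -1.28 in Flk1- cells. The 9 lower genes with a higher value in Flk1+ cells were Hbb-b2, Fbn2, Ints6, Map1b, Tgfbi, Irx1, Eno2, Nr2f2 and Bmp2k, and the 3 higher genes with a lower one were Bnc2, Tmem198b and Stim2. Irx1, a homeobox gene, was at 5.18 and 4.09 in Flk1- and at 5.02 and 5.45 in Flk1+ cells. Of the lower genes, Klf1, Alas2, Nfe2, Gypc and Nexn were below the floor on both Flk1+ arrays. So were Morc1, Platr10, Mageb16, Sox15, Fbxo15, Klhl4, Nr0b1, Lrrc34, Esrrb and Mymx of the higher genes. The Flk1+ differences of all these genes carry no information, although they are counted in the 91 and the 38. Whether any gene differed more in 1 fraction than in the other was not tested.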

How the data were processed

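RNA from 4 sorted cell samples, 1 per group, was amplified from 50 ng and hybridised to 1 array each, per the labels' protocols. The authors deposited log2 expression values for 45141 probe sets. The submitters' processing notes list RMA and limma, and their role and version are not given in the sources used here. The 104 control probe sets were left out, and 28898 probe sets with 1 gene symbol were kept (551 had several and 15588 none). Of 17097 genes 16936 had an identifier in the RefSeq table. Each gene was represented by its brightest probe set on average over the 4 arrays. No value was normalized again except in alternatives (limma 3.58.1, R 4.3.3; cyclic loess, quantile). Counts and list medians were computed in Python 3.11.15 (pandas 2.3.3, numpy 2.4.6) and tested on simulated data. Where a value was below the floor of 3.19, the fold was taken against the floor and is a lower bound. The number of arrays limits the precision, and no p-value is given. Promoter windows were held for 13605 of the genes and a gene counted when any of its windows held the word.

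The genes, the 48 lists (1263 genes measured, 923 above the floor) and the rules were chosen with earlier results of these data known. Genes were named from among the 25 furthest apart each way (gene models passed over), but not all of these are described above. Others were the members of a list furthest apart, or key members of a list whatever their values. Left out of the 25 was Ahnak, at 7.80 and 5.24, with probe sets from -2.56 to 0.16. So were Nefl (5.05 and 6.28, other probe set 0.03), Lrrc34 (3.45 and 4.81), Hsbp1l1 (2.58 and 3.87), Klhl4 (2.58 and 3.82) and Slc39a2 (3.16 and 4.27). The words CACCC and CCAAT were chosen after the values were seen, as were the genes singled out for their Flk1+ values or their lack of a list.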

Additional observations from a re-analysis of the deposited data

How the results depend on the processing

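Counts moved with the size rule: at 1.5-fold 313 genes were higher and 267 lower, at 3-fold 4 and 38. With all probe sets of a gene averaged, 27 were higher. Under the other alternatives (quantile normalization again, cyclic loess, centring on the median, a floor at the 50th percentile, no floor, both arrays above the floor, values set to the floor, probe sets ending in s_at or x_at left out) the higher count ran from 33 to 45 and the lower from 80 to 111. Across the alternatives that change values, 20 of the 41 higher and 62 of the 100 lower genes stayed 2-fold apart wherever measured. Genes with only s_at or x_at probe sets, such as Dlk1 and Eras, had no value where these were left out. Those kept included the embryonic globin genes, Tnnt2, Hand1, Bmp4, Hesx1 and Lefty1. Foxq1 differed by -0.10 without the probe sets ending in s_at or x_at. The median of 4 skeletal muscle fusion genes, -0.16, was 0.0145 with values set to the floor, 0.0259 with no floor and 0.0346 with both arrays above the floor, and the cause was not tested. The globin median ran from -6.10 to -1.95, the latter where both arrays had to be above the floor, and the epithelial median from 0.20 to 0.39. The mesenchymal and matrix median ran from -0.59 to -0.21, and was -0.36 with probe sets averaged. The cardiac and lateral plate median ran from -0.80 to -0.52, germ cell from 0.27 to 0.49 and trophoblast from 0.03 to 0.36. With no floor 8 list medians moved by more than 0.13 and kept their sign. They were the epithelial, matrix, cardiac, germ cell and trophoblast ones above, and those of the Hox, feeder fibroblast, and myeloid and platelet lists. Centring takes 0.06 off every difference, so list medians of that size have no settled sign. No paired analysis was possible because each group has 1 array.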

Other observations

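Probe sets that the annotation used here pairs with no single gene behaved much like the named genes. Of 5809 such probe sets above the floor, 13 (0.224%) passed the 2-fold rule on the higher side and 56 (0.964%) on the lower side in knockout Flk1- cells.

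The median difference of a chromosome's genes ran from -0.01 on chromosome 13 to 0.06 on chromosome 14. On the X chromosome 5 of 326 genes were 2-fold higher and 6 lower, beside 41 and 100 of all 10533 genes. Genes 2-fold apart in the same direction lay next to each other at 4 places, which were Hba-x with Hba-a1 (7.07 kb), Hbb-bh1 with Hbb-y (10.1 kb), Myl4 with Itgb3 (62.0 kb) and Dppa2 with Morc1 (121 kb). Myl4, a myosin light chain gene, and Itgb3, an integrin gene, lie side by side on chromosome 11 and differed by -2.81 and -2.38.

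By level, genes with a mean between 3.96 and 5.03 on the 2 arrays held more of the 2-fold genes than any other quartile, 24 higher and 36 lower. The brightest quartile held 6 and 21, and the dimmest held 3 and 24.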
